A study of Mus musculus with 6 samples.

Results

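The 42 genes described here are enzymes and carriers of fatty acid oxidation, together with direct targets and regulators of the nuclear receptor PPAR-alpha. They were taken by gene symbol from a table of 24421 genes, and all 42 were present and passed the filter on low counts, among 13977 genes that did. RNA came from the kidney cortex of PT-I-PpoI mice, which express the DNA-cutting endonuclease I-PpoI in proximal tubular epithelial cells, and of wild type mice, with 3 libraries in each group. The group is spelled PT-I_Ppo-1 in the sample titles. The driver of the transgene, other alleles, strain, age and sex are not given in the sources used here. The labels do not say that each library is a separate mouse, so the p-values below reflect only how these samples varied, which may be technical variation.

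The libraries also differ in how they were named by the submitters. PT-I-PpoI replicate 3 and wild type replicates 2 and 3 have a hyphen before the final number (hyphenated names), and PT-I-PpoI replicates 1 and 2 and wild type replicate 1 do not (plain names). The labels do not say what the form of the name stands for. It is unequally spread over the groups, so both comparisons are given throughout. Total counts were 13582540 to 20861021 read pairs per library.

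Fatty acids are activated to acyl-CoA, carried into mitochondria as carnitine esters and shortened in repeated rounds of dehydrogenation, hydration, a further oxidation and thiolytic cleavage, while peroxisomes shorten very long and branched chains. Proximal tubule cells depend strongly on this pathway for ATP. PPAR-alpha binds fatty acids and switches on many of these genes, above all in fasting, with the coactivator encoded by Ppargc1a as a partner.

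In levels per transcript length (RPKM, counts scaled to library size and exon length), the means over the 6 libraries spanned the range between Ppargc1a at 9.55 RPKM and Ech1 at 819 RPKM. The next highest after Ech1 were Acaa1b at 630.0 RPKM, Etfb at 626 RPKM, Ehhadh at 625 RPKM and Acadm at 590 RPKM. The library ranges of these 5 genes overlapped one another, at 710 to 1092 RPKM for Ech1, 497 to 798 RPKM for Acaa1b, 584 to 754 RPKM for Etfb, 404 to 887 RPKM for Ehhadh and 510 to 641 RPKM for Acadm, except that Ech1 lay above Acadm in every library. Enzymes of mitochondrial and peroxisomal oxidation thus held the top of the list, and the regulators were at its bottom, with Ppara at 18.2 RPKM. Members differed widely in how stable they were. The short-chain dehydrogenase gene Acads differed by 1.11 times between its highest and lowest library in CPM (counts scaled to library size), and Pdk4 by 23.4 times.

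Between PT-I-PpoI and wild type kidneys, no member passed edgeR's quasi-likelihood test at an adjusted p of 0.05. Of all 13977 genes, 0.136% were called higher in PT-I-PpoI and 0% lower. At an unadjusted p of 0.05, 1 member was higher (Acot3) and 0 were lower, against 6.42% and 5.61% of all genes. DESeq2, limma-voom and limma on the deposited log2 values also called 0 of 42. The median log2 fold change, PT-I-PpoI over wild type, was 0.14 over the members and 0.00039 over all genes, and 27 of 42 (64.3%) lay above 0, against 50.1% of all genes. The CPM values of the groups did not overlap for 1 member, Ppargc1a, which was higher in PT-I-PpoI (2.38% of members, against 9.23% of all genes), and for 0 members lower in PT-I-PpoI (7.74% of all genes).

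Between hyphenated and plain library names, with the group in the model, 10 members (23.8%) fell and 1 (2.38%) rose. Over all genes 1.29% were lower and 1.77% higher in hyphenated libraries, 3.06% together. The members that fell were the pyruvate dehydrogenase kinase gene Pdk4, the peroxisomal genes Ehhadh and Acaa1b, the thioesterase genes Acot1 and Acot3, the mitochondrial genes Eci1, Etfdh and Acaa2, the lipid droplet gene Plin2 and the carrier gene Ucp2. The member that rose was Fabp3. The median log2 fold change, hyphenated over plain, was -0.24 over the members and -0.0071 over all genes, and 31 of 42 (73.8%) lay below 0, against 51.4% of all genes. The values of the name forms did not overlap for 25 members that were lower (59.5%, against 13.1% of all genes) and for 5 that were higher (11.9%, against 12.3%) in hyphenated libraries. At an unadjusted p of 0.05, 24 members were lower and 4 higher, against 9.01% and 9.82% of all genes.

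**Figure D1:**
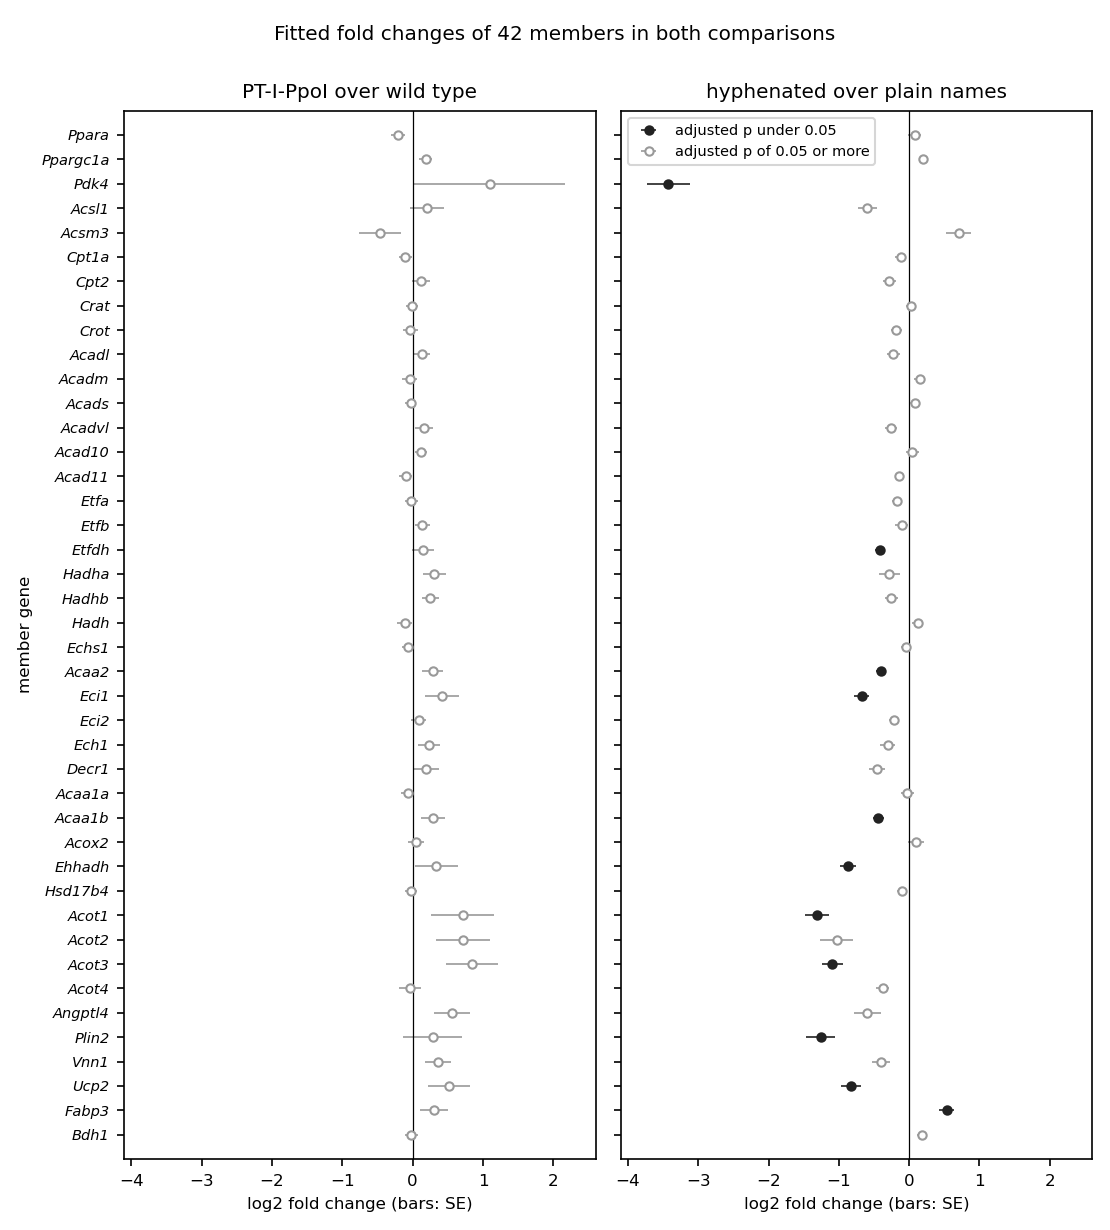
Log2 fold change of each member, PT-I-PpoI over wild type (left) and hyphenated over plain names (right), with bars of 1 SE from edgeR's quasi-likelihood fit and genes ordered by role. Filled points passed an adjusted p of 0.05, which 0 members did between the groups and 11 did between the name forms, with Pdk4 farthest from 0 at -3.42.

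Neither regulator passed the test in either comparison. Ppara encodes the receptor itself. It had 113, 126 and 142 CPM in PT-I-PpoI, against 153, 135 and 152 CPM in wild type (replicates 1, 2 and 3), a difference of -0.21 ± 0.10 on the log2 scale (± SE throughout) with an adjusted p of 0.444 by edgeR. Between name forms it differed by 0.08 ± 0.10 (adjusted p = 0.711). Hyphenated and plain libraries overlapped, and the lowest was the plain PT-I-PpoI replicate 1. Ppargc1a had 62.7, 62.6 and 72.8 CPM in PT-I-PpoI, against 53.0, 61.0 and 59.9 CPM in wild type. Each PT-I-PpoI library lay above each wild type library, by 0.19 ± 0.09 (adjusted p = 0.45), and 0.25 ± 0.07 in the fit that also held the name form (adjusted p = 0.152). Between name forms Ppargc1a differed by 0.20 ± 0.07 (adjusted p = 0.145), and the forms overlapped.

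Pdk4 encodes a kinase that inhibits the pyruvate dehydrogenase complex and so spares glucose when fatty acids are burned. It had 40.5 CPM in the hyphenated PT-I-PpoI library and 24.9 and 21.0 CPM in the hyphenated wild type libraries, against 212 and 491 CPM in the plain PT-I-PpoI libraries and 301 CPM in the plain wild type library. The 3 hyphenated libraries lay far below the 3 plain ones in both groups. The log2 fold change, hyphenated over plain, was -3.42 ± 0.30 (adjusted p = 0.00102), so plain libraries were 10.7 times higher. Within PT-I-PpoI alone the difference was -2.99 and within wild type -3.71, on the log2 CPM scale. Between the groups the libraries overlapped, the plain wild type library lying above 2 of the 3 PT-I-PpoI libraries, with a log2 fold change of 1.09 ± 1.07 (adjusted p = 0.69). With single libraries left out this value was 0.12 without PT-I-PpoI replicate 2, 0.60 and 0.62 without wild type replicates 3 and 2, and 3.44 without wild type replicate 1, and it passed in none of the 6 repeats.

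**Figure D2:**
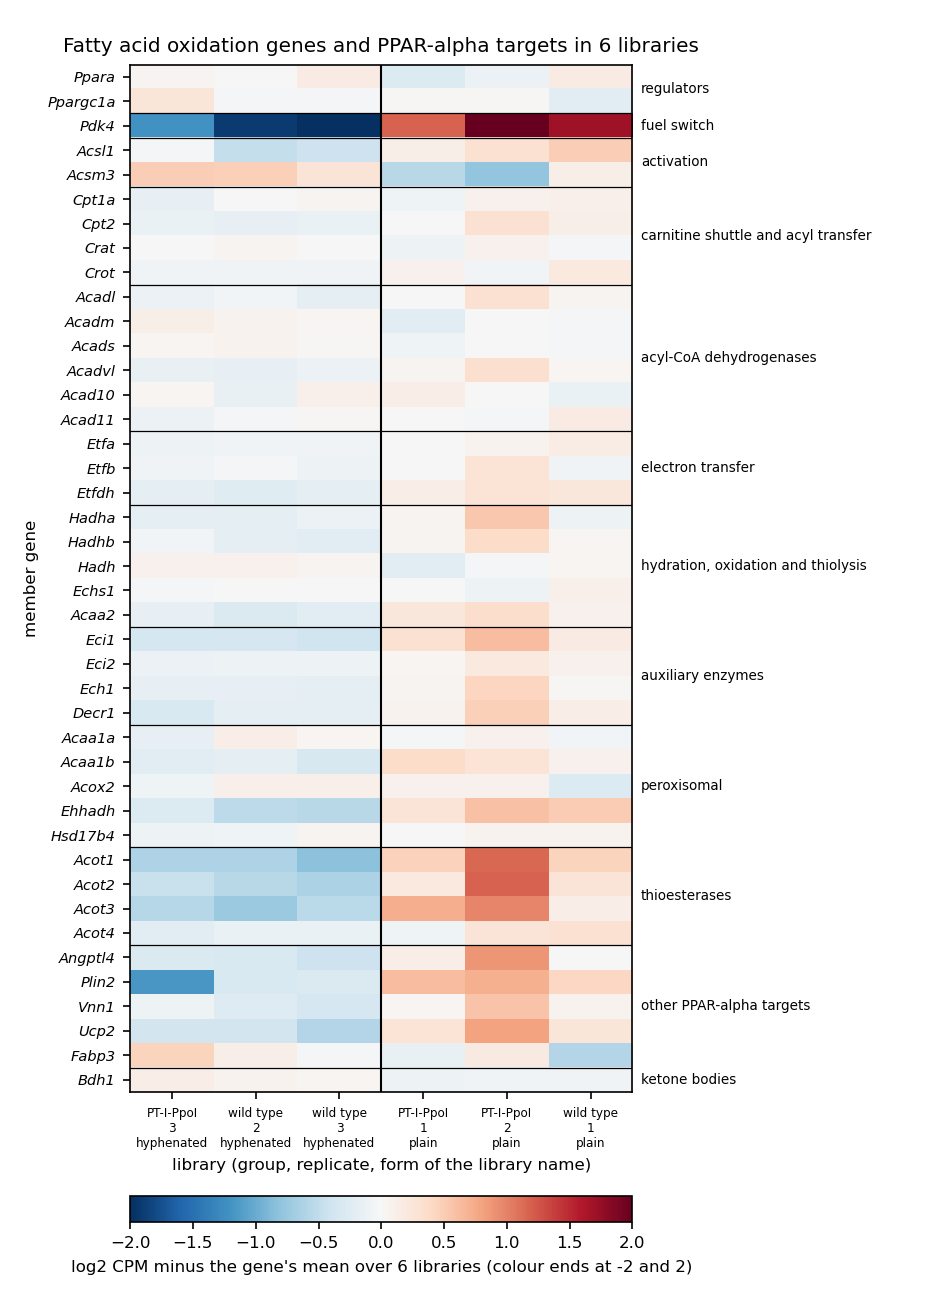
Log2 CPM of the 42 members in each of the 6 libraries, set to each gene's own average, with genes down the page by role. Hyphenated libraries are left of plain ones, and within each form PT-I-PpoI is left of wild type. The plain libraries are high and the hyphenated ones low for Pdk4, Ehhadh, Acot1, Acot3 and Plin2, and PT-I-PpoI replicate 2 is the highest of the 6 for 23 members.

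Cpt1a, whose product makes acylcarnitines at the outer mitochondrial membrane and controls the rate of entry, passed in neither comparison. It had 581, 653 and 548 CPM in PT-I-PpoI, against 660.4, 619 and 635 CPM in wild type, a log2 fold change of -0.10 ± 0.10 (adjusted p = 0.671). Between name forms the difference was -0.12 ± 0.08 (adjusted p = 0.429). Of the other genes of the carnitine shuttle, Cpt2 (the inner membrane partner) differed by -0.28 between name forms, Crot (the peroxisomal octanoyltransferase) by -0.18 and Crat (the acetyltransferase) by 0.03, and none passed. The hyphenated and plain libraries did not overlap for Cpt2 and Crot, which were lower in the hyphenated ones. Between the groups these 4 genes lay between -0.10 and 0.12.

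Activation of fatty acids to acyl-CoA is represented by Acsl1, for long chains, and Acsm3, for medium chains. Neither passed in either comparison. Their differences between name forms had opposite signs, with log2 fold changes of -0.60 ± 0.14 for Acsl1 (adjusted p = 0.0536) and 0.70 ± 0.17 for Acsm3 (adjusted p = 0.0703). Acsm3 had 449 CPM in the hyphenated PT-I-PpoI library and 444 and 381 CPM in the hyphenated wild type libraries, against 217 and 185 CPM in the plain PT-I-PpoI libraries and 347 CPM in the plain wild type library. Its exons overlap those of Eri2 over 26.0% of their length, and the counting command set no option for reads that overlap several genes. Between the groups Acsm3 differed by -0.46 ± 0.30 (adjusted p = 0.538) and Acsl1 by 0.20 ± 0.24 (adjusted p = 0.752). With single libraries left out, the differences between name forms were -0.94 to -0.25 for Acsl1 and 0.25 to 1.16 for Acsm3. Acsl1 passed without PT-I-PpoI replicate 1 and without PT-I-PpoI replicate 3, and Acsm3 passed without wild type replicate 1. Without PT-I-PpoI replicate 3 the form varied only within wild type, and without wild type replicate 1 only within PT-I-PpoI.

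None of the 6 acyl-CoA dehydrogenase genes, which catalyse the opening oxidation of each round, was called in either comparison. Between name forms the genes for long and very long chains, Acadl and Acadvl, had log2 fold changes of -0.22 and -0.26, and those for medium and short chains, Acadm and Acads, of 0.15 and 0.08. All 4 had hyphenated and plain libraries that did not overlap. Acad10 and Acad11, family members with less settled substrates, differed by 0.04 and -0.14. Between PT-I-PpoI and wild type the 6 genes lay between -0.10 and 0.17.

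Electrons from these dehydrogenases pass through the flavoprotein ETF, encoded by Etfa and Etfb, to ubiquinone through the enzyme encoded by Etfdh. Etfdh had 315 CPM in the hyphenated PT-I-PpoI library and 305 and 313 CPM in the hyphenated wild type libraries, against 393 and 436 CPM in the plain PT-I-PpoI libraries and 419 CPM in the plain wild type library. Every hyphenated library lay below every plain one, with a log2 fold change of -0.42 ± 0.07 (adjusted p = 0.0202). Etfa differed by -0.18 (adjusted p = 0.187) and Etfb by -0.11 (adjusted p = 0.599). Between the groups the log2 fold changes of the 3 genes were -0.02 to 0.14.

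Of the 5 genes for hydration, the next oxidation and thiolysis in mitochondria, 1 fell between name forms. Acaa2, a mitochondrial thiolase, had 505 CPM in the hyphenated PT-I-PpoI library and 462 and 489.6 CPM in the hyphenated wild type libraries, against 666 and 723 CPM in the plain PT-I-PpoI libraries and 605 CPM in the plain wild type library, with a log2 fold change of -0.40 ± 0.07 (adjusted p = 0.027). Hadha and Hadhb encode the subunits of the trifunctional protein for long chains. Hadha had 366, 511 and 308 CPM in PT-I-PpoI, against 327, 305 and 325 CPM in wild type, a log2 fold change of 0.31 ± 0.17 (adjusted p = 0.473), and Hadhb had 258, 322 and 240.2 CPM in PT-I-PpoI, against 256, 218 and 215 CPM in wild type, a log2 fold change of 0.25 ± 0.13 (adjusted p = 0.454). In both genes the highest library was PT-I-PpoI replicate 2 and the groups overlapped. Between name forms Hadha, Hadhb, Hadh (the short-chain hydroxyacyl-CoA dehydrogenase) and Echs1 (the short-chain hydratase) lay between -0.28 and 0.12 and did not pass. Between the groups Acaa2, Hadh and Echs1 differed by 0.28, -0.11 and -0.07.

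The 4 auxiliary enzymes, which prepare unsaturated chains for oxidation, all had negative log2 fold changes between name forms and forms that did not overlap. Eci1, an enoyl-CoA isomerase, had 173 CPM in the hyphenated PT-I-PpoI library and 173.5 and 167 CPM in the hyphenated wild type libraries, against 271 and 338 CPM in the plain PT-I-PpoI libraries and 245 CPM in the plain wild type library. It fell by 0.67 ± 0.11 on the log2 scale (adjusted p = 0.0157). The second isomerase gene Eci2, the dienoyl-CoA isomerase gene Ech1 and the dienoyl-CoA reductase gene Decr1 had log2 fold changes of -0.21, -0.31 and -0.46 and did not pass. Between the groups all 4 lay between 0.08 and 0.42, with adjusted p of at least 0.495.

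Among 5 peroxisomal genes, 2 fell between name forms. Ehhadh, which encodes the bifunctional hydratase and dehydrogenase and is a classical PPAR-alpha target, had 1486 CPM in the hyphenated PT-I-PpoI library and 1243 and 1216 CPM in the hyphenated wild type libraries, against 2142 and 2669 CPM in the plain PT-I-PpoI libraries and 2532 CPM in the plain wild type library. Its log2 fold change was -0.87 ± 0.11 (adjusted p = 0.00654). The other bifunctional enzyme gene, Hsd17b4, differed by -0.11 and Acox2, an oxidase of branched chains and bile acid intermediates, by 0.10. Between the groups the 5 peroxisomal genes lay between -0.07 (Acaa1a) and 0.34 (Ehhadh), with adjusted p of at least 0.5002.

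The thiolase genes Acaa1a and Acaa1b are near copies, with coding sequences 96.5% identical. Acaa1b had 885 CPM in the hyphenated PT-I-PpoI library and 914 and 830.0 CPM in the hyphenated wild type libraries, against 1331 and 1256 CPM in the plain PT-I-PpoI libraries and 1093 CPM in the plain wild type library, and fell by 0.44 ± 0.08 on the log2 scale (adjusted p = 0.0307). Acaa1a had 194 CPM in the hyphenated PT-I-PpoI library and 237 and 223 CPM in the hyphenated wild type libraries, against 213 and 229 CPM in the plain PT-I-PpoI libraries and 209.7 CPM in the plain wild type library, a log2 fold change of -0.02 ± 0.09 (adjusted p = 0.911). Of all stretches of 100 bases in their transcripts, 22.6% for Acaa1b and 21.7% for Acaa1a also occur in another gene, so the split of reads between the copies is uncertain.

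The acyl-CoA thioesterase genes Acot1 to Acot4, which release free fatty acids from acyl-CoA in the cytosol, mitochondria and peroxisomes, lie side by side on chromosome 12. Acot1 had 170.4 CPM in the hyphenated PT-I-PpoI library and 170.3 and 149 CPM in the hyphenated wild type libraries, against 362 and 578 CPM in the plain PT-I-PpoI libraries and 359 CPM in the plain wild type library. Acot3 had 41.8 CPM in the hyphenated PT-I-PpoI library and 37.4 and 42.9 CPM in the hyphenated wild type libraries, against 103 and 123 CPM in the plain PT-I-PpoI libraries and 68.6 CPM in the plain wild type library. In both genes every hyphenated library was below every plain one, and the log2 fold changes were -1.32 ± 0.17 for Acot1 (adjusted p = 0.00734) and -1.09 ± 0.15 for Acot3 (adjusted p = 0.0088).

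Acot2 and Acot4 showed the same order of forms without passing. Acot2 had 49.3 CPM in the hyphenated PT-I-PpoI library and 45.5 and 43.4 CPM in the hyphenated wild type libraries, against 76.7 and 152 CPM in the plain PT-I-PpoI libraries and 80.1 CPM in the plain wild type library (log2 fold change -1.03 ± 0.23, adjusted p = 0.0522). Acot4 had 67.2 CPM in the hyphenated PT-I-PpoI library and 71.5 and 71.0 CPM in the hyphenated wild type libraries, against 73.6 and 93.0 CPM in the plain PT-I-PpoI libraries and 96.9 CPM in the plain wild type library (log2 fold change -0.38 ± 0.10, adjusted p = 0.0769). Acot2 passed when PT-I-PpoI replicate 1 was left out (-1.19, adjusted p = 0.0177) or replicate 2 of that group (-0.76, adjusted p = 0.00522). Acot4 passed when PT-I-PpoI replicate 1 was left out (-0.45, adjusted p = 0.0378). Over 15 alternatives the adjusted p was 0.00298 to 0.189 for Acot2 and 0.0378 to 0.446 for Acot4. Sequence is shared within the cluster. Of the stretches of 100 bases in each transcript, 32.5% for Acot1, 17.1% for Acot2, 5.93% for Acot3 and 0.988% for Acot4 occur in another gene, so the values of Acot1 and Acot2 are the least certain.

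Between PT-I-PpoI and wild type, Acot3 had the smallest p of the 42 members, with a log2 fold change of 0.84 ± 0.37 (adjusted p = 0.413). The values above are 103, 123 and 41.8 CPM in PT-I-PpoI, against 68.6, 37.4 and 42.9 CPM in wild type, and the groups overlapped, with the hyphenated PT-I-PpoI library among the low ones. Acot1 and Acot2 differed by 0.71 ± 0.44 and 0.72 ± 0.39, and Acot4 by -0.04 ± 0.16. Without PT-I-PpoI replicate 3, Acot3 passed as higher, with a log2 fold change of 1.18 (adjusted p = 0.0334), and Acsm3 as lower, with -0.96 (adjusted p = 0.0142). That repeat set only plain PT-I-PpoI libraries against wild type libraries of both name forms, and it called 625 genes in all. Acot3 passed in 1 of 15 alternative analyses and Acsm3 in 1 of 15, this same one, with adjusted p over the 15 between 0.0334 and 0.846 for Acot3 and between 0.0142 and 0.906 for Acsm3.

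The bases upstream of Pdk4, Acot1, Acot3 and Plin2 are shown because these 4 members fell most between name forms, with Acot4, a neighbour in the same cluster that did not pass, for comparison. Each is the 250 bases before the RefSeq start, in GRCm38.p6 (mm10), 5′ to 3′ on the strand of the gene, which for these 5 genes is 0 bases from the start in the count table. Capitals mark the hexamer AGGTCA, the core of nuclear receptor sites, and CACGTG, the E-box bound by clock factors, on either strand (TGACCT is AGGTCA read on the other strand). The windows are Pdk4 at chr6:5496279-5496528 (minus strand), Acot1 at chr12:84009252-84009501 (plus), Acot3 at chr12:84051901-84052150 (plus), Acot4 at chr12:84038129-84038378 (plus) and Plin2 at chr4:86670060-86670309 (minus).
Pdk4: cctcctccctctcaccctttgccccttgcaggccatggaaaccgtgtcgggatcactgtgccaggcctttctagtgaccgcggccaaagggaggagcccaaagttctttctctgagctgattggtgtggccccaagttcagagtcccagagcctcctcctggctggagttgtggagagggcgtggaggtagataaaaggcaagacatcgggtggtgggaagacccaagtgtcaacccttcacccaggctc
Acot1: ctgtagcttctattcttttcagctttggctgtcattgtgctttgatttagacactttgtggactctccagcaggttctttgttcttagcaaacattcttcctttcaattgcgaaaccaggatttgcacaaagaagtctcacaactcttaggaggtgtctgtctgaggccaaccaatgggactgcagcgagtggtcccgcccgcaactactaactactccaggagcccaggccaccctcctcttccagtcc
Acot3: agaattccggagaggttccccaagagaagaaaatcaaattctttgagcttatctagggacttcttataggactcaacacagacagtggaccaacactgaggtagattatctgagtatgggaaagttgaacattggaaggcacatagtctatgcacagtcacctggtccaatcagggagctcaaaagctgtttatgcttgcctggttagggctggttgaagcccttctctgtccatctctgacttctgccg
Acot4: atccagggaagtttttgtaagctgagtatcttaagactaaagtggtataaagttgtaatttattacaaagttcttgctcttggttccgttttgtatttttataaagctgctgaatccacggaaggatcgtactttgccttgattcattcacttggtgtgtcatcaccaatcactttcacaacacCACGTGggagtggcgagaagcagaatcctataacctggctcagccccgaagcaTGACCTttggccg
Plin2: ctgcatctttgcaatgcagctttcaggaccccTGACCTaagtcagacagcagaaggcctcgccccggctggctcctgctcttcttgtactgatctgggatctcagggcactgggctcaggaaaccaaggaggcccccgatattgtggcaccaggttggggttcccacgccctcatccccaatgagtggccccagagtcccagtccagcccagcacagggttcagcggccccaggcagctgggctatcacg
RefSeq gave such a window for 36 of the 42 members and for 32851 gene starts in all. The PPAR response element, searched as a direct repeat of AGGTCA with any single base between, was in 0 of the 36 and in 0.0335% of all windows, on both strands. The hexamer AGGTCA, which is contained in that element, was in 6 (Acadm, Acadvl, Acot4, Cpt1a, Echs1 and Plin2) and in 14% of all. GTAAACA, a FOXO site, was in 1 (Acsm3) and in 3.17% of all, and CACGTG in 1 (Acot4) and in 6.02% of all. Of the 10 members that fell between name forms, Plin2 alone held any of these motifs among those with a window. Exact letters in a short window say nothing about binding elsewhere.

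Of 5 further PPAR-alpha targets, 2 fell and 1 rose between name forms. Plin2, which coats lipid droplets, had 88.7 CPM in the hyphenated PT-I-PpoI library and 159.6 and 163 CPM in the hyphenated wild type libraries, against 303 and 324 CPM in the plain PT-I-PpoI libraries and 265 CPM in the plain wild type library. The hyphenated PT-I-PpoI library was the lowest by a wide margin, and the log2 fold change was -1.26 ± 0.21 (adjusted p = 0.0181). Ucp2, a mitochondrial carrier, had 138.5 CPM in the hyphenated PT-I-PpoI library and 137 and 118 CPM in the hyphenated wild type libraries, against 215 and 312 CPM in the plain PT-I-PpoI libraries and 211 CPM in the plain wild type library (log2 fold change -0.83 ± 0.14, adjusted p = 0.0202). Between the groups Plin2 differed by 0.29 ± 0.42 and Ucp2 by 0.51 ± 0.30, and neither passed (adjusted p = 0.798 and 0.502).

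Fabp3, a fatty acid-binding protein gene of muscle and kidney, went the other way. It had 160.5 CPM in the hyphenated PT-I-PpoI library and 128 and 116 CPM in the hyphenated wild type libraries, against 105 and 132 CPM in the plain PT-I-PpoI libraries and 78.6 CPM in the plain wild type library. The forms overlapped when groups were ignored, and within each group the hyphenated libraries were higher, with a log2 fold change of 0.53 ± 0.10 (adjusted p = 0.0324). The PT-I-PpoI over wild type difference of Fabp3 was 0.31 ± 0.20 (adjusted p = 0.545). With the form as a term it was 0.50 ± 0.10 and had the smallest adjusted p of the members in that fit (0.105).

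Angptl4, a secreted inhibitor of lipoprotein lipase, had 239, 404 and 180.0 CPM in PT-I-PpoI, against 218, 176 and 165 CPM in wild type. Vnn1, a pantetheinase gene that responds to PPAR-alpha, had 371, 539 and 337 CPM in PT-I-PpoI, against 381, 302 and 286 CPM in wild type. In both, PT-I-PpoI replicate 2 stood highest and the groups overlapped, with log2 fold changes of 0.56 ± 0.26 for Angptl4 (adjusted p = 0.432) and 0.36 ± 0.18 for Vnn1 (adjusted p = 0.456). Between name forms they differed by -0.59 (adjusted p = 0.143) and -0.40 (adjusted p = 0.14). Bdh1, which interconverts ketone bodies, differed by -0.02 between the groups and by 0.18 between name forms (adjusted p = 0.178).

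**Figure D3:**
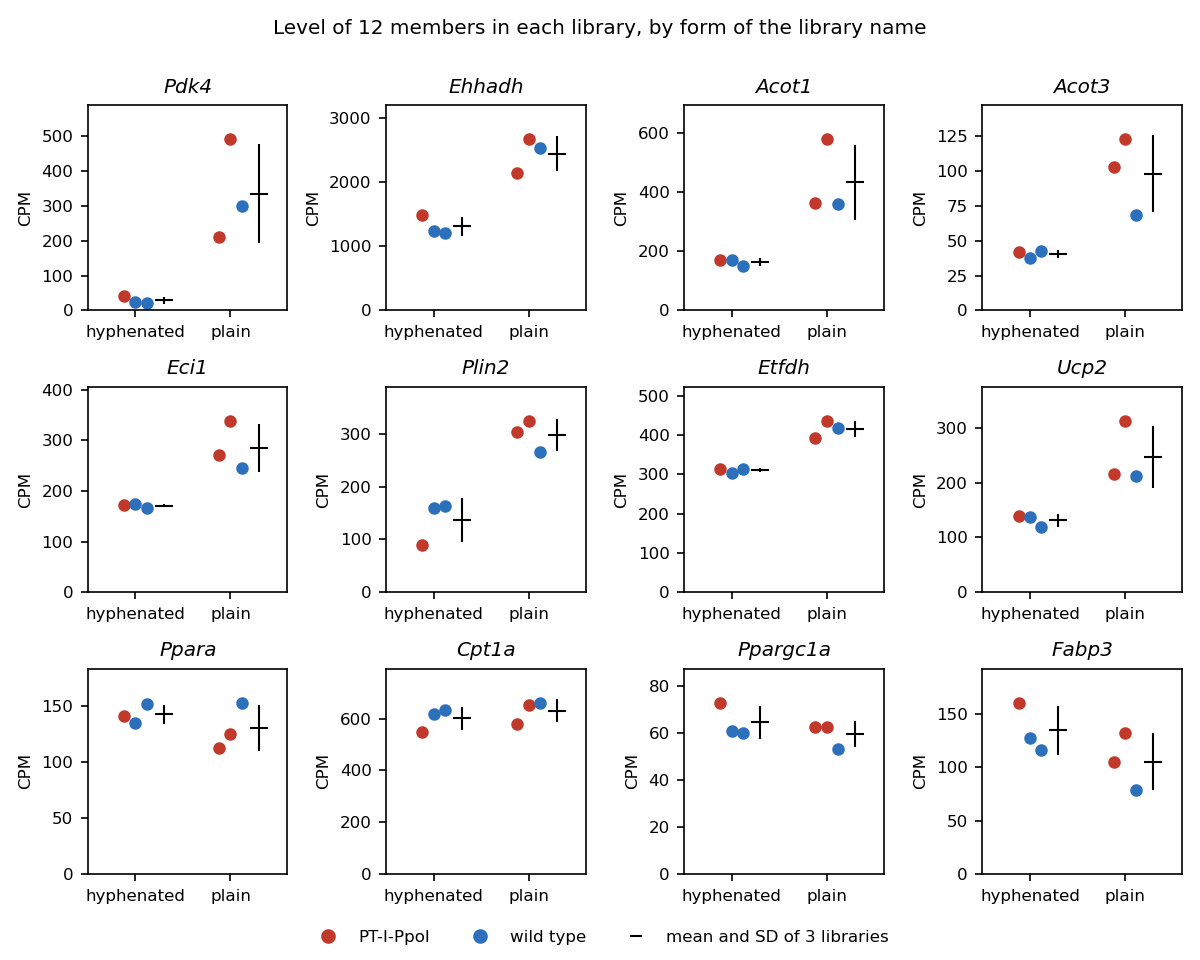
CPM of 12 members in each library, on axes from 0, with hyphenated libraries left of plain ones, PT-I-PpoI in red, wild type in blue and black marks for the mean and SD of 3 libraries. Ehhadh, Acot1 and Pdk4 separate completely by name form, while Ppara and Cpt1a overlap.

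The difference between name forms was also taken inside each group, although a group holds only 1 or 2 libraries of each form. Its sign was the same within PT-I-PpoI and within wild type for 36 of 42 members (85.7%, against 57.7% of all genes). It was below 0 in both for 28 (66.7%, against 30.1%), above 0 in both for 8 and opposite for 6. Where the name forms do not overlap, as for 25 members lower and 5 higher, the same sign in both groups follows by necessity. These counts therefore largely restate the lack of overlap and are not separate support. The median over members was -0.26 within PT-I-PpoI and -0.20 within wild type, on the log2 CPM scale. Across the 42 genes the differences within the groups had a Pearson r of 0.86 (Spearman rho 0.84), and 0.78 (0.83) without Pdk4. Across all 13977 genes the r was 0.27 and the rho 0.23. These correlations are across genes of the same 6 libraries, which are not independent, and no p is attached.

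**Figure D4:**
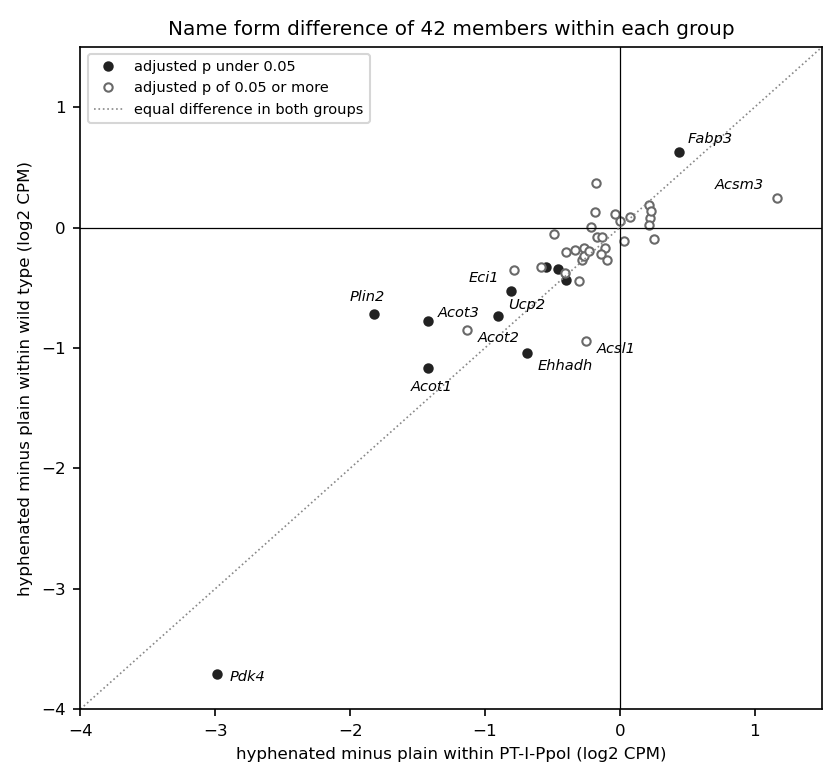
Hyphenated minus plain log2 CPM within PT-I-PpoI against the same difference within wild type, 1 point per member, filled where the member passed between name forms. Most points are in the lower left, 28 of 42, and Pdk4 is at -2.99 and -3.71.

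PT-I-PpoI minus wild type was also taken within each form. The median over members was 0.02 within hyphenated libraries and 0.10 within plain ones, and 24 of 42 members had the same sign in both. The same values over all genes were not taken, so these stand without a comparison. Single members differed more, with Plin2 at -0.86, Pdk4 at 0.82 and Acsl1 at 0.41 within hyphenated libraries and Acsm3 at -0.79, Acot3 at 0.71 and Fabp3 at 0.59 within plain ones, on the log2 CPM scale. With the form as a term in the edgeR fit, 0 members were called, against 0.351% of all genes higher and 0.107% lower, 0.458% together. At an unadjusted p of 0.05 it gave 3 members higher and 0 lower, against 6.24% and 6.32% of all genes. In that fit 28 of 42 lay above 0, and the median was 0.06, against -0.0057 over all genes. The smallest adjusted p after Fabp3 was that of Ppargc1a (0.152).

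Library by library, the median of the members' centred log2 CPM was 0.04, 0.28 and -0.12 in PT-I-PpoI replicates 1, 2 and 3, against 0.09, -0.14 and -0.12 in wild type replicates 1, 2 and 3. The summed CPM of the members was 15594 in the hyphenated PT-I-PpoI library and 15303 and 15057 in the hyphenated wild type libraries, against 17829.5 and 21102 in the plain PT-I-PpoI libraries and 18753 in the plain wild type library. The members took 1.45% to 2.17% of all counts. The 3 hyphenated libraries were close to each other, and PT-I-PpoI replicate 2 stood above the other plain ones.

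The calls between name forms depended in part on single libraries. Without PT-I-PpoI replicate 3 that group held only plain libraries, and without wild type replicate 1 that group held only hyphenated ones. In these repeats the form difference came from the other group alone. Pdk4, Acot1, Acot3, Ehhadh and Plin2 passed whichever of the 6 libraries was left out. Eci1 and Ucp2 passed in 4 of the 6 repeats, Etfdh in 3, and Acaa2, Acaa1b and Fabp3 in 2, with the direction of all 11 kept throughout. Of the 11 calls, 8 remained without PT-I-PpoI replicate 1, 11 without PT-I-PpoI replicate 2, 6 without PT-I-PpoI replicate 3, 10 without wild type replicate 1, 7 without wild type replicate 2 and 5 without wild type replicate 3. Among the lost calls, Eci1 and Ucp2 were lost without PT-I-PpoI replicate 3 and without wild type replicate 3, with log2 fold changes over the 6 repeats of -0.82 to -0.52 for Eci1 and -0.93 to -0.69 for Ucp2. Etfdh was lost without PT-I-PpoI replicate 3 and without wild type replicates 2 and 3 (-0.45 to -0.39 over the repeats). Acaa2 (-0.46 to -0.34) and Acaa1b (-0.55 to -0.32) were lost without these libraries and without PT-I-PpoI replicate 1. Fabp3 (0.43 to 0.64) was lost without PT-I-PpoI replicate 1 and without each wild type library. Plin2 kept its call but ranged between -1.82 and -0.71, the smallest fall being that without PT-I-PpoI replicate 3.

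A further 85 genes of fatty acid oxidation and PPAR-alpha targets that are not among the 42 were listed, and 79 were tested. Between PT-I-PpoI and wild type 0 passed by edgeR, with a median log2 fold change of -0.02. At an unadjusted p of 0.05, 4 were higher and 8 lower, against 6.42% and 5.61% of all genes. Between name forms 15 (19%) fell, against 1.29% of all genes, and 2 rose, Lpl and Acsm1, against 1.77%. The median of the 79 was -0.04, and 48 of 79 lay below 0, against 51.4% of all genes. The smallest p of the list belonged to Cyp4a14, a fatty acid omega-hydroxylase gene, with 627 CPM in the hyphenated PT-I-PpoI library and 384 and 286 CPM in the hyphenated wild type libraries, against 2207 and 3719 CPM in the plain PT-I-PpoI libraries and 1915 CPM in the plain wild type library (log2 fold change -2.38 ± 0.20, adjusted p = 9.29e-04). Slc25a30, a mitochondrial carrier gene, had a log2 fold change of -1.06 (adjusted p = 9.29e-04) and Cyp4a12b, of the same family as Cyp4a14, of -1.07 (adjusted p = 0.00157).

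Other genes that fell were chosen after their values were seen. Cyp4a10, another omega-hydroxylase gene, had 1145 CPM in the hyphenated PT-I-PpoI library and 860.2 and 881 CPM in the hyphenated wild type libraries, against 2141 and 3047 CPM in the plain PT-I-PpoI libraries and 2109 CPM in the plain wild type library (log2 fold change -1.23 ± 0.13, adjusted p = 0.0023). The peroxisomal transporter gene Abcd3 (-0.39), the peroxisomal lyase gene Hacl1 (-0.61) and the lipid droplet gene Plin5 (-1.05) also passed.

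Genes of other lists also differed between the name forms. Over all genes 1.77% rose and 1.29% fell. Of 17 circadian clock genes, 8 rose and 3 fell in hyphenated libraries, among them Ciart (4.03), Nr1d2 (1.07) and Per3 (1.79) on the log2 scale as higher and Arntl (-2.10), Npas2 (-2.28) and Nfil3 (-1.84) as lower, the last 3 named by their direction. Clock genes keep daily rhythms in cells. The list's summed level was 911.5 to 1122 CPM in hyphenated libraries, against 544 to 639 CPM in plain ones. That sum follows the higher-expressed genes, such as Tef at 133 to 379 CPM, and hides those that fell, such as Nfil3 at 2.80 to 16.3 CPM. Of 12 genes of the straight proximal tubule, 7 rose, with summed levels of 11660 to 14950 CPM in hyphenated libraries, against 8094 to 10700 CPM in plain ones. Of 16 genes of the convoluted proximal tubule, 2 rose (Slc34a1, 0.57, and Slc22a6, 0.46), with 24780 to 28550 CPM in hyphenated libraries, against 20090 to 23940 CPM in plain ones. The part of these differences in the members' values was not tested. In bulk tissue, fewer cells of a type and less RNA per cell cannot be told apart.

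In the remaining lists at most 1 gene each passed between name forms, against 3.06% of all genes. Of 22 regulators around PPAR-alpha, 1 rose between name forms (Esrra, 0.33), of 10 pyruvate dehydrogenase genes 1 fell (Pdk1, -0.57), and of 15 tested glucocorticoid- and fasting-responsive genes 1 rose (Tsc22d3, 1.02). Of 8 tested liver genes 1 rose (Cyp2e1), with a list median of 0.49 and summed levels of 3213 to 3975 CPM in hyphenated libraries, against 2301 to 3196 CPM in plain ones. Cyp2e1 alone, at 2916 to 3414 CPM in hyphenated libraries and 1904 to 2804 CPM in plain ones, made up most of these sums. Alb had 110 CPM in wild type replicate 3 and 9.92 to 11.2 CPM in the other libraries. Apoa1, Apoa2, Ahsg and Cps1 also stood well above the rest in that library, while Serpina1a, Ttr, Fgb, Apob and Cyp2e1 did not. Of 12 thick ascending limb genes 1 fell (Cldn10), and of 15 collecting duct genes 0 passed (2 at an unadjusted p of 0.05). Adipocyte genes, markers of attached fat, summed to 117.5 to 208 CPM in hyphenated libraries, against 146 to 257 CPM in plain ones, with 1 of 7 tested lower (Lipe). Fabp4, at 69.9 to 139 CPM over all libraries, and Lipe, at 29.9 to 66.8 CPM, made up most of these sums. Adipoq had 0.58 to 9.87 CPM, and its name forms overlapped. Muscle genes summed to 1.15 to 1.84 CPM in hyphenated libraries, against 2.26 to 2.96 CPM in plain ones, with 1 of 12 passing the filter and Myh4 at 0 in all libraries. Their part in the members' values was not tested.

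Between the groups, the segment lists differed as follows. Over all genes 0.136% were called higher in PT-I-PpoI and 0% lower by edgeR. At an unadjusted p of 0.05 these shares were 6.42% and 5.61%. Of 12 thick ascending limb genes 3 rose in PT-I-PpoI (among them Tmem207 and Ptger3), and 9 were higher and 0 lower at an unadjusted p of 0.05. Their summed levels were 7898 to 8143 CPM in PT-I-PpoI, against 5585 to 6337 CPM in wild type. Of 15 collecting duct genes 2 rose (Aqp4 and Avpr2), and 7 were higher and 0 lower at an unadjusted p of 0.05. These summed to 1387 to 1448 CPM in PT-I-PpoI, against 1009 to 1103 CPM in wild type. The fold changes of all 12 and all 15 lay above 0. Straight proximal tubule genes summed to 8094 to 11660 CPM in PT-I-PpoI, against 10700 to 14950 CPM in wild type, and 0 of 12 passed (1 higher and 8 lower at an unadjusted p of 0.05). Convoluted proximal tubule genes summed to 20090 to 24780 CPM in PT-I-PpoI, against 23940 to 28550 CPM in wild type, and 0 of 16 passed (0 higher and 5 lower at an unadjusted p of 0.05). The markers of the labelled tissue were thus present in every library, and the part of segment composition in the members' values was not tested.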

How the data were processed

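The authors deposited raw read pair counts per gene, after mapping by HISAT2 (per the labels' protocols) and counting by featureCounts 1.5.2, as the file headers record. Only pairs with both mates mapped were counted, with no option set for strand, multi-mapped reads or overlapping genes, so antisense partners and near-identical copies may lose or mix reads although the kit keeps strand. The header names an mm10 annotation and the labels' protocols mm9. The coordinates in the table were those of mm10 and are given as such. The authors also deposited log2 values (regularized log, rlog), with DESeq2 named in the submitters' processing notes, and these served in 1 alternative only.

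The counts were tested in R 4.3.3 with edgeR 4.0.16: the default expression filter (minimum count 10) kept 13977 genes, TMM factors scaled the libraries, and the quasi-likelihood test (two-sided) was called at a Benjamini-Hochberg adjusted p of 0.05 over these genes. The group was tested alone, and the library name form with the group as a term. CPM are counts scaled to the TMM-scaled library size, RPKM use the deposited exon length, and values within groups are log2 CPM with a prior count of 2. The procedure was tested on simulated data. All 42 members have values in every library, and the limit of precision is 13582540 to 20861021 counts per library and 3 libraries per group. No 2 libraries of a group agreed within sampling noise.

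The members and all lists were chosen with earlier results of these data known, and counts over them are descriptions with no set test. Values per library are given for Ppara, Ppargc1a, Pdk4 and Cpt1a, for the 8 members with the smallest p in each comparison, and for the near copies Acaa1a, Acaa1b and Acot1 to Acot4, and up to 3 genes with the smallest p may be named from each other list. Values of Acaa2, Acsm3 and Fabp3, and any gene outside this rule, are given with their values already known. Promoter windows came from RefSeq (GRCm38.p6), and shared stretches of transcripts from the GENCODE vM1 transcripts. Other size factors, filters, thresholds and tools (DESeq2 1.42.0, limma 3.58.1), the replicate number as a block, the other form of each model and the loss of each single library were the alternatives. Some genes of the other lists are not reported here by name.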

Additional observations from a re-analysis of the deposited data

How the results depend on the processing

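Among PT-I-PpoI against wild type results, 0 members were called under every alternative except 1 higher and 1 lower without PT-I-PpoI replicate 3, so leaving out single libraries gave 0 to 1 higher and 0 to 1 lower. The median log2 fold change of 0.14 stayed above 0, at 0.02 to 0.21 when single libraries were left out, lowest without PT-I-PpoI replicate 2, and was 0.06 when the fit held the name form. The calls over all genes varied more, with 19 in the reported fit, 187 by DESeq2's test, 47 with no filter, 64 when the fit held the name form and 0 to 625 with single libraries left out.

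Between name forms, the 10 members called lower became 14 with no filter, 14 at an adjusted p of 0.1, 13 by DESeq2's test, 12 with upper-quartile factors, 6 with the replicate block and 5 to 13 when single libraries were left out, and the 1 called higher became 2 with no filter, 2 at an adjusted p of 0.1, 0 with the name form without the group, 0 with the replicate block and 0 to 1 when single libraries were left out. The median of -0.24 was -0.14 by limma on the deposited rlog values, which shrink differences by construction, -0.35 with the replicate block and -0.29 to -0.18 when single libraries were left out. The cause of the other differences was not tested. Pdk4, Acot1 and Acot3 were called under all 15 alternatives, Ehhadh and Plin2 under 14, Ucp2 under 13, Eci1 under 12, Etfdh under 11, Acaa2 and Acaa1b under 10 and Fabp3 under 9, and each of these 11 kept its direction throughout. Of the members not called in the reported fit, Acot2 was called under 6 of the 15, Acsl1 under 5, Decr1 under 4, Acot4 under 3, and Angptl4 and Acsm3 under 2. Over all genes 428 were called, against 682 by DESeq2's test and 124 to 830 with single libraries left out. The count over all genes was 595 with no filter, 402 with upper-quartile factors, 363 with the name form without the group and 55 with the replicate block.

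The replicate numbers are shared by the groups, and whether they pair the libraries could not be decided. The deviations of same-numbered libraries correlated at 0.22, -0.13 and 0.16 for numbers 1, 2 and 3, and PT-I-PpoI replicates 2 and 3 correlated best with another number. All pairs of the same name form correlated positively and all pairs of different forms negatively, so the signs followed the form. Numbers 1 and 3 each join libraries of the same form, where number and form cannot be told apart. Number 2 joins libraries of different forms, and its pair was negative. With the number as a block, 0 members were called between the groups, 40 genes in all, and between name forms 4 of the 11 calls remained, with 55 genes in all. In that fit the name form varied only within number 2, where PT-I-PpoI was plain and wild type hyphenated. Its estimate therefore rested on that pair relative to the group difference, and the fit cannot show how stable the calls are.

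Depth limits genes with low counts most, and every member had at least 21 CPM in each library. With 3 libraries a group and 1 of them of a different name form from the others in each group, group and form are partly confounded, and what the name form stands for is not given in the sources used here.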
